A study of Mus musculus with 24 samples.

Results

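Hnf4a, Foxa1, Foxa2, Foxa3, Cebpa, Cebpb, Onecut1 and Prox1 are 8 genes for transcription factors that define the hepatocyte, and their mRNA was followed here in the livers of 24 fasted mice. They were chosen by name, with earlier results of these data known. Each symbol matched 1 of the 54532 genes of the deposited count table. The study asked how the liver responds to fasting without Rab30, a small GTPase of the Golgi apparatus, and without Cpt2, the mitochondrial carnitine palmitoyltransferase that long-chain fatty acids need for β-oxidation. All mice were males of 8 to 10 weeks on a C57BL/6J background, fasted for 24 h, and each of the 6 genotypes had 4 livers. Whole-body Rab30KO mice lacked exon 4 of Rab30 in every cell and were set beside Rab30 Ctrl, their wild-type littermates. Rab30L-/- mice carried floxed Rab30, Cpt2L-/- mice carried floxed Cpt2 and DKO mice carried both floxed genes, each with a Cre transgene under the albumin promoter, which acts in hepatocytes and leaves the genes intact in the other cells of the liver. The controls used for these 3 genotypes, ff;ff, were littermates of DKO with both floxed genes and no Cre.

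Library totals ranged from 11801027 to 24497738 counts, with a median of 14358966. A level is given in CPM, the count relative to the library's total, with library sizes scaled by the trimmed mean of M-values (TMM) over the 24 libraries, and levels of different genes are compared only in FPKM, which divides by gene length. Counts over the whole gene followed the labels only in part for the targeted genes. Rab30 averaged 147 ± 30 CPM in Cpt2L-/- and 161 ± 57.9 CPM in DKO (SD, n = 4), against 36.6 ± 9.55 CPM in ff;ff and 17.1 ± 7.36 CPM in Rab30L-/-, and it averaged 11.2 ± 5.04 CPM in Rab30KO against 14.1 ± 10.8 CPM in Rab30 Ctrl. Its mean was thus lower in Rab30L-/- than in ff;ff, though not past the threshold (log2 fold change -1.10, SE 0.29, adjusted p = 0.174), and in DKO it was as high as in Cpt2L-/-, whose Rab30 is intact by label. Cpt2 averaged 132 ± 5.15 CPM in ff;ff, 127 ± 30.2 CPM in Cpt2L-/-, 105 ± 10.9 CPM in DKO and 219 ± 40.3 CPM in Rab30L-/-. Counts by exon were not analysed here, so the deletions themselves were not checked and every genotype below is the one on the library's label. Within a group all 36 pairs of libraries differed by more than counting noise.

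These factors work as a network that binds its own genes and those of the plasma proteins, the urea cycle and glucose, lipid and bile acid metabolism. Hnf4a encodes a nuclear receptor (HNF4α) that is needed for the differentiated state of the hepatocyte. Foxa1, Foxa2 and Foxa3 encode forkhead factors, which open chromatin in the developing liver and bind enhancers of the fasting response in the adult. Cebpa and Cebpb encode leucine zipper proteins, the former tied to quiescence and metabolism and the latter to regeneration, the acute phase and gluconeogenesis. Onecut1 encodes HNF6, a cut homeodomain factor of hepatocytes and bile duct cells, and Prox1 encodes a homeodomain protein that limits several nuclear receptors.

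By level per length, averaged over the 24 libraries, Hnf4a was the highest at 160 FPKM and Onecut1 the lowest at 2.05 FPKM. Between them lay Cebpa at 139, Cebpb at 94.4, Foxa3 at 21.4, Prox1 at 17.6, Foxa2 at 10.9 and Foxa1 at 5.68 FPKM, the same order as by TPM computed from the counts and gene lengths. Ranges of neighbours in this order overlapped, as for Hnf4a, at 106 to 287 FPKM, and Cebpa, at 58.8 to 232 FPKM. Among the forkhead genes Foxa3 was the highest and Foxa1 the lowest.

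**Figure D1:**
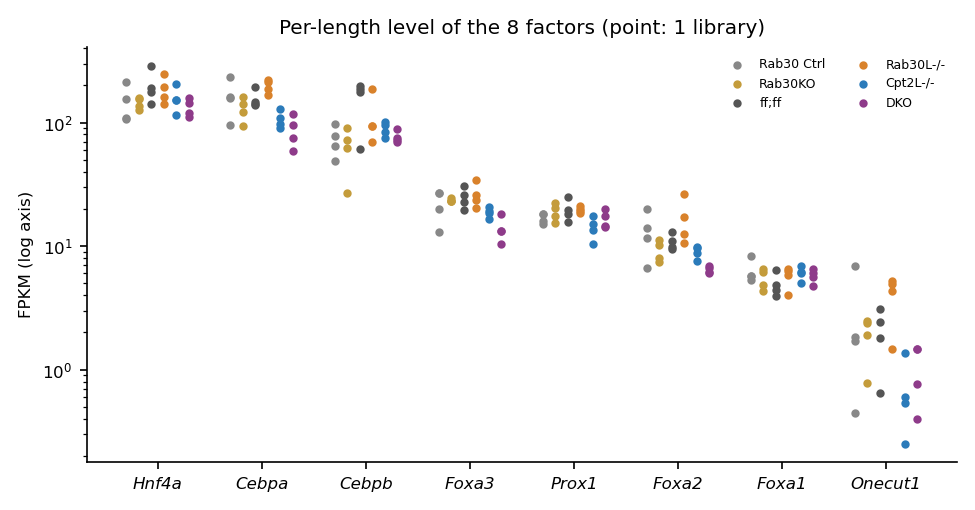
Level per length of the 8 factors (x axis, ordered by their mean) as FPKM on a log axis, with 1 point for each of the 24 libraries coloured by genotype. Hnf4a, Cebpa and Cebpb lie above the other 5 genes on average, and Onecut1 is spread most widely, from 0.252 to 6.91 FPKM.

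The factors differed in how far they ranged across livers. Onecut1 ranged 27.7-fold, from 1.04 to 28.7 CPM, on counts of 16 to 516, and is the member measured with the least depth. Cebpb ranged 7.11-fold, Foxa2 4.43-fold, Cebpa 4.05-fold and Foxa3 3.4-fold. Hnf4a, at 2.62-fold, Prox1, at 2.36-fold, and Foxa1, at 2.14-fold, ranged least. Counts of the 7 factors other than Onecut1 were 148 or higher in every library.

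Over all 6 groups, 5 of the 8 factors differed (edgeR quasi-likelihood test, adjusted p under 0.05), against 44.5% of all 14584 genes tested. They were Cebpa (adjusted p = 0.00108), Foxa2 (0.00139), Foxa3 (0.00678), Cebpb (0.0276) and Onecut1 (0.0398). Prox1 (adjusted p = 0.0888), Hnf4a (0.202) and Foxa1 (0.508) did not pass. Foxa2, Foxa3 and Cebpa passed without each of the 24 libraries in turn. Cebpb was lost without ff;ff replicate 2, 3 or 4 (adjusted p up to 0.0918), and Onecut1 in 13 of the 24 fits, without Rab30L-/- or Rab30KO replicate 2, 3 or 4, DKO or Cpt2L-/- replicate 1, 3 or 4, or ff;ff replicate 4 (up to 0.094). Without a filter on low counts these 2 did not pass.

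**Figure D2:**
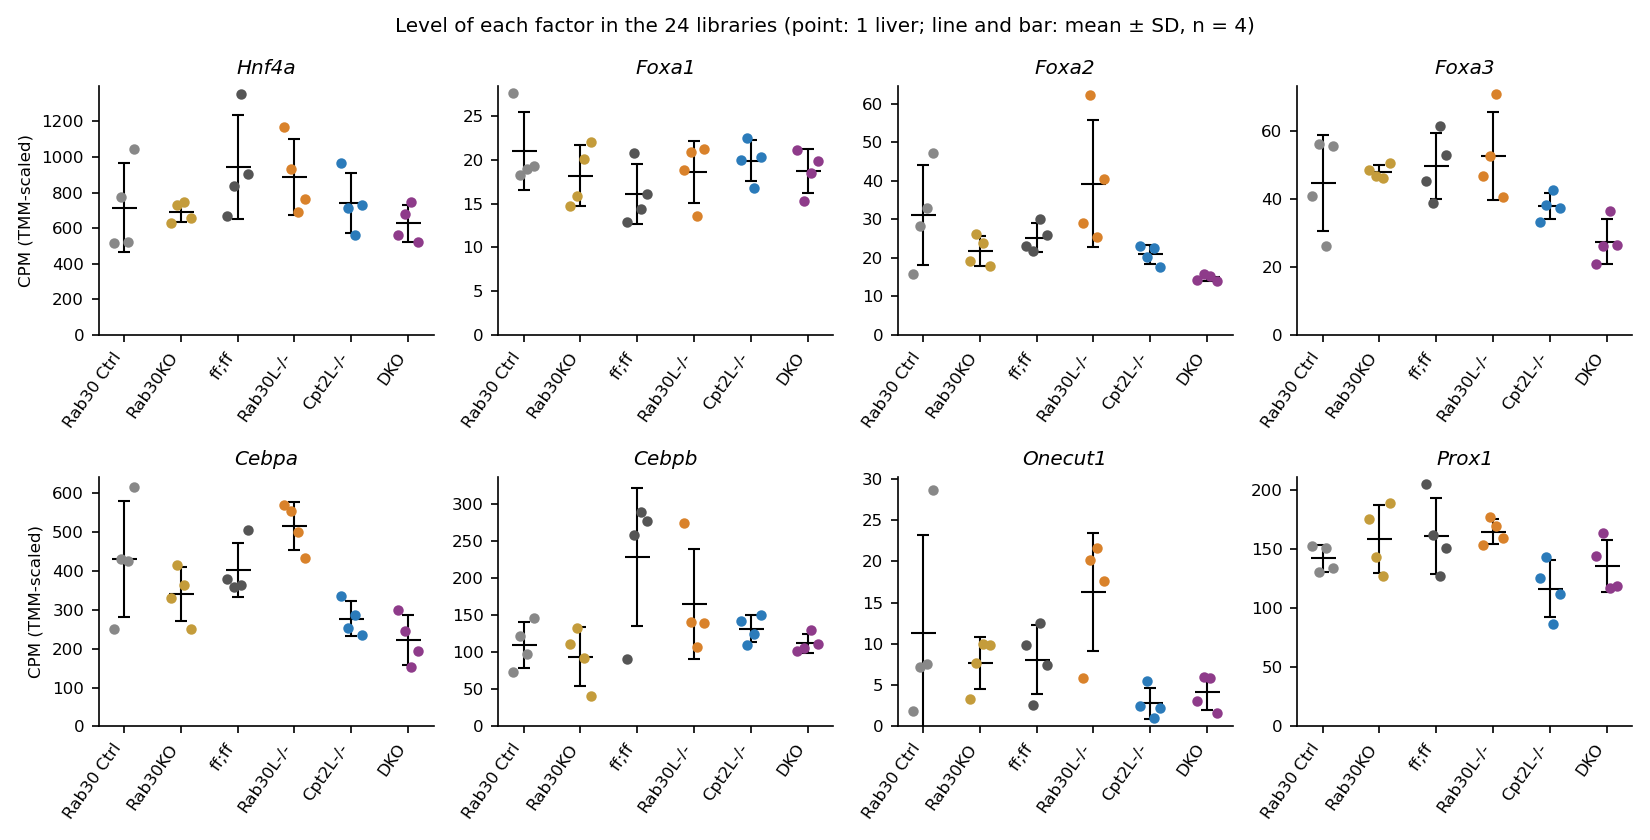
TMM-scaled CPM of each factor (y axis of each panel, starting at 0) in the 6 genotypes, with 1 point per liver and the mean ± SD (n = 4). The 4 DKO livers lie below every ff;ff and every Rab30L-/- liver for Foxa2, Foxa3 and Cebpa, where 9.63% and 15.1% of all genes were lower without overlap, and the genotypes overlap for Foxa1.

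The upstream sequences of the 4 factors that were lower in DKO than in Rab30L-/- are shown because these genes moved together in that comparison. Each is the 250 bases before the RefSeq start (GRCm38.p6), 5′ to 3′ on the gene's strand, and capitals mark the letters of the searched motifs on either strand. Cebpa is on the plus strand at chr7:35119043-35119292, Foxa2 on the minus strand at chr2:148046970-148047219, Foxa3 on the minus strand at chr7:19023540-19023789 and Onecut1 on the plus strand at chr9:74861671-74861920. Foxa2 has 3 starts in the table and the most upstream is shown.
Cebpa: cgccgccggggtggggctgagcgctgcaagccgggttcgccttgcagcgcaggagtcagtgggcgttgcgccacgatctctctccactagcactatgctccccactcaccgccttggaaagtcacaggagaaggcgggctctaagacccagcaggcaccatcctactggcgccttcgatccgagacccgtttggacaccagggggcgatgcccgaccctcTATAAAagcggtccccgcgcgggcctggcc
Foxa2: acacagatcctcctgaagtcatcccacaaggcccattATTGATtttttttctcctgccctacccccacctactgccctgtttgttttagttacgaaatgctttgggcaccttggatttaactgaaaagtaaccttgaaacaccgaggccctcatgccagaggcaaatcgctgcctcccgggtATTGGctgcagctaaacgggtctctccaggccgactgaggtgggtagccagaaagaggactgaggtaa
Foxa3: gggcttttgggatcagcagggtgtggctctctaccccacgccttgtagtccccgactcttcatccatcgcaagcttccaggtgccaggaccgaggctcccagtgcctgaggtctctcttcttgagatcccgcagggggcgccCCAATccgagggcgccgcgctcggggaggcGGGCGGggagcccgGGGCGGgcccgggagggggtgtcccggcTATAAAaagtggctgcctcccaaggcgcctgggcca
Onecut1: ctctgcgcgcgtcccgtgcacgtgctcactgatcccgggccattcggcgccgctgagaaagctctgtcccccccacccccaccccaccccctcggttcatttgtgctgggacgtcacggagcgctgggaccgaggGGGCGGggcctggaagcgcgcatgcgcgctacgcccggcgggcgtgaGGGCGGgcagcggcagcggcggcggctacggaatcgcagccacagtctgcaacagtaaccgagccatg

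The 4 sequences had no searched motif in common. Cebpa had 1 match, the TATA box TATAAA 30 bases before the start, a motif that 12.4% of all 32851 RefSeq windows of this length hold. Foxa3 had TATAAA 36 bases before the start, the CCAAT box CCAAT (33.8% of windows) and the GC box GGGCGG (32.7%) at 2 places. Foxa2 had CCAAT and ATTGAT, the core that ONECUT factors bind, 213 bases before the start, which 6.72% of windows hold. Onecut1 had GGGCGG at 2 places. The other motifs searched were the HNF1 motif GTTAAT (6.43% of windows), the FOXA core TGTTTAC (3.17%), the C/EBP palindrome TTGCGCAA (0.164%) and the HNF4 site CAAAGTCCA (0.384%), and none of these is in the 4 sequences. Of the other 4 factors, Hnf4a held the CCAAT box, the GC box and the ONECUT core, Foxa1 held the CCAAT box, the GC box and the FOXA core, Cebpb held the GC box alone at 5 places, of which 1 pair overlaps, and Prox1 held the TATA box and the GC box. Hnf4a and Prox1 each have 2 RefSeq starts, and only the most upstream was searched. Which start the livers used was not tested. Matches of different motifs did not overlap in any of the 8 windows. GC content was 66.4% for Cebpa, 68.8% for Foxa3, 71.6% for Onecut1 and 50.8% for Foxa2, against a median of 52.4% over all windows.

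Foxa2 was the 1 factor of 8 whose DKO levels overlapped none of Cpt2L-/-, Rab30L-/- and ff;ff. The share of all genes apart from each of these groups at once was not computed. Against Rab30L-/- Cebpa had a lower adjusted p (edgeR, 0.00137) and Onecut1 a larger fold (3.96). In the DKO livers Foxa2 stood at 14.4, 15.9, 15.3 and 14 CPM. In Cpt2L-/- it stood at 23, 20.3, 22.7 and 17.7 CPM, and in ff;ff at 23.1, 21.8, 30.2 and 26 CPM. Every DKO liver was below every Cpt2L-/- and ff;ff liver. Of all 14584 genes, 12.5% did not overlap between DKO and Cpt2L-/- (6.34% lower in DKO) and 19.7% between DKO and ff;ff (9.63% lower), against 1 and 3 of the 8 factors. The DKO livers were the tightest group, with a coefficient of variation of 5.88%. In Rab30L-/- the levels were 29.1, 62.2, 25.5 and 40.4 CPM, with 2 livers above all those of ff;ff. The groups of the whole-body line lay at 15.8 to 47.3 CPM in Rab30 Ctrl, whose lowest liver was within the range of DKO, and at 17.9 to 26.2 CPM in Rab30KO. Foxa2 was 1.7-fold lower in DKO than in ff;ff (log2 fold change -0.77, SE 0.15, adjusted p = 0.00445) and 2.63-fold lower than in Rab30L-/- (-1.39, SE 0.25, adjusted p = 0.00264). Against Cpt2L-/- it was 1.39-fold lower, which did not pass after adjustment (log2 fold change -0.48, SE 0.13, adjusted p = 0.0715). DESeq2's Wald test and limma-voom called this difference, and adjusted p-values ran from 0.0229 to 0.368 over the alternatives. In the order of mean levels, neighbouring groups overlapped for the other 7 factors.

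The forkhead family did not move as 1 group. Foxa3 stood at 20.8, 26.2, 36.4 and 26.3 CPM in DKO, at 45.3, 38.9, 61.3 and 52.8 CPM in ff;ff and at 46.7, 52.5, 70.7 and 40.6 CPM in Rab30L-/-. Every DKO liver was below the livers of both of these groups, as for 3 of the 8 factors against Rab30L-/-, where 29.9% of all genes did not overlap (15.1% lower in DKO). Rab30 Ctrl, at 26.3 to 56.1 CPM, held 1 liver in the range of DKO, and Rab30KO, at 46.2 to 50.4 CPM, held none. Foxa3 was 1.82-fold lower in DKO than in ff;ff (log2 fold change -0.86, SE 0.19, adjusted p = 0.0101) and 1.91-fold lower than in Rab30L-/- (-0.94, SE 0.19, adjusted p = 0.00439). In Cpt2L-/- it stood at 33.2, 38.3, 42.5 and 37.3 CPM, with a log2 fold change against ff;ff of -0.40 (SE 0.16, adjusted p = 0.0853). DKO against Cpt2L-/- gave -0.45 (SE 0.16, adjusted p = 0.138). These 2 differences passed when ff;ff replicate 2 (adjusted p = 0.0487) and DKO replicate 3 (0.0365) were left out, and the second also by limma-voom (0.0222). Foxa1 kept to 12.9 to 27.7 CPM over all 24 livers, and its intervals span no change in all 6 pairwise comparisons. In DKO against Rab30L-/- its log2 fold change was 0.01, with a 95% interval from -0.36 to 0.38.

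Cebpa, the C/EBP gene of the quiescent liver, was lower in both groups without Cpt2. It stood at 336, 253, 286 and 237 CPM in Cpt2L-/- and at 301, 245, 152 and 194 CPM in DKO. In ff;ff it stood at 380, 360, 363 and 506 CPM and in Rab30L-/- at 571, 555, 501 and 434 CPM. The 8 livers labelled without Cpt2 were all below the 8 ff;ff and Rab30L-/- livers. The share of all genes with this split was not computed. Between Cpt2L-/- and ff;ff Cebpa was the 1 factor of 8 that did not overlap, where 25.6% of all genes did not (12.3% lower in Cpt2L-/-). The livers without Cpt2 were not below all those of the whole-body line, which lay at 251 to 617 CPM in Rab30 Ctrl and 252 to 416 CPM in Rab30KO. Cebpa was 1.46-fold lower in Cpt2L-/- than in ff;ff (log2 fold change -0.54, SE 0.17, adjusted p = 0.0294). It was 1.81-fold lower in DKO than in ff;ff (-0.86, SE 0.21, adjusted p = 0.0161) and 2.31-fold lower than in Rab30L-/- (-1.20, SE 0.20, adjusted p = 0.00137). The first of these calls was lost without ff;ff replicate 4 or Cpt2L-/- replicate 2, 3 or 4 (log2 fold changes from -0.66 to -0.42 and adjusted p up to 0.105 over the 8 libraries left out) and in the fit over all 24 libraries (0.0855), and the second without DKO replicate 4 or ff;ff replicate 4 (adjusted p up to 0.0581). DKO and Cpt2L-/- overlapped (log2 fold change -0.30, 95% interval from -0.74 to 0.13, adjusted p = 0.395).

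Cebpb had its highest levels in ff;ff, at 259, 290 and 277 CPM in 3 livers, but at 90.6 CPM in the other. It stood at 102, 106, 131 and 111 CPM in DKO and at 142, 110, 125 and 151 CPM in Cpt2L-/-. The ff;ff group thus overlapped both, through 1 liver. Cebpb was 2.05-fold lower in DKO than in ff;ff (log2 fold change -1.03, SE 0.30, adjusted p = 0.0389). This call was lost when any library but ff;ff replicate 1 was left out, with adjusted p-values up to 0.101, and in a fit with no filter on low counts (0.152). Without ff;ff replicate 1 the log2 fold change was -1.30 with an adjusted p of 0.000264. In Cpt2L-/- against ff;ff it was -0.81 (SE 0.30, adjusted p = 0.0745), which passed by DESeq2's Wald test (0.0236) and limma-voom (0.00966) and, in edgeR, without the same liver (0.000346). DKO against Rab30L-/- passed only without Rab30L-/- replicate 3 (0.0448). Rab30L-/- livers, at 275, 141, 107 and 139 CPM, held 1 liver at the level of the higher ff;ff livers. In Rab30 Ctrl, the other control group of the study, Cebpb was at 73.7, 122, 97.4 and 147 CPM.

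Onecut1 was lower in DKO than in Rab30L-/-, by 3.96-fold (log2 fold change -1.99, SE 0.50, adjusted p = 0.0167). It stood at 3.07, 5.94, 5.92 and 1.59 CPM in DKO and at 5.89, 20.1, 21.6 and 17.6 CPM in Rab30L-/-. The groups overlapped by 1 Rab30L-/- liver, without DKO replicate 1 the adjusted p was 0.0541, and without a filter on low counts it was 0.071. In Cpt2L-/- it stood at 2.43, 5.48, 1.04 and 2.19 CPM against 9.87, 2.6, 12.5 and 7.43 CPM in ff;ff, with a log2 fold change of -1.54 (SE 0.53, adjusted p = 0.0625), which passed by DESeq2's Wald test (0.00703) and, in edgeR, without ff;ff replicate 2 or Cpt2L-/- replicate 2 (from 0.0115). DKO against ff;ff gave -0.98, with a 95% interval from -2.08 to 0.13 (adjusted p = 0.222). Livers of 1 genotype differed as much as the genotypes, as in Rab30 Ctrl, where Onecut1 stood at 1.86, 7.16, 7.52 and 28.7 CPM.

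Hnf4a, the most abundant of the 8, passed in no pairwise comparison. It stood at 562, 677, 749 and 523 CPM in DKO, at 669, 838, 1350 and 906 CPM in ff;ff, at 1170, 930, 690 and 764 CPM in Rab30L-/- and at 967, 714, 560 and 727 CPM in Cpt2L-/-. The ranges overlapped in every comparison. The log2 fold change was -0.59 in DKO against ff;ff (SE 0.22, adjusted p = 0.0909) and -0.50 in DKO against Rab30L-/- (SE 0.20, adjusted p = 0.0757). Both passed by DESeq2's Wald test, by limma-voom and in edgeR without a filter on low counts, and without ff;ff replicate 1 (adjusted p = 0.0331) and Rab30L-/- replicate 3 (0.0381). Hnf4a has 2 promoters whose products differ at the N terminus, and counts per gene do not separate them. Prox1 lay between 86.5 and 205 CPM over the 24 livers and was not called in any pairwise comparison. Its mean was lowest in Cpt2L-/-, at 117 ± 23.8 CPM (SD, n = 4), with a log2 fold change against ff;ff of -0.48 (SE 0.19, adjusted p = 0.0853), which passed without ff;ff replicate 3 (0.0372) and in the fit over all 24 libraries (0.0386).

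Loss of Rab30 alone moved none of the 8 factors past the thresholds of an adjusted p under 0.05 and a 1.2-fold change. In Rab30KO against Rab30 Ctrl, 3 of 13656 genes passed (0.022%), and the log2 fold changes of the 8 factors ran from -0.54 for Onecut1 to 0.15 for Prox1, with none at an unadjusted p under 0.05. In Rab30L-/- against ff;ff 0.479% of genes passed, and 1 factor, Foxa2, had an unadjusted p under 0.05 (log2 fold change 0.63, SE 0.26, adjusted p = 0.387). Under DESeq2 and limma-voom the 8 factors were also not called in these 2 comparisons. The intervals were wide for some members, from -2.23 to 1.14 for Onecut1 in Rab30KO and from -1.37 to 0.43 for Cebpb in Rab30L-/-, and narrower for others, from -0.32 to 0.37 for Prox1 in Rab30L-/-.

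All pairwise calls among the 8 factors were of lower levels in Cpt2L-/- or DKO, and DKO against ff;ff differs in both genes. In Cpt2L-/- against ff;ff 1 factor of 8 was lower, against 23.8% of genes called in either direction and 11.9% lower (11.9% higher). That count is near the share of all genes. The median log2 fold change of the 8 was -0.44, against -0.003 over all genes tested. In DKO against ff;ff 4 of 8 were lower, against 16.1% of genes called, 8.24% lower and 7.87% higher, with a median of -0.81 for the 8 and -0.02 for all genes. In DKO against Rab30L-/- 4 of 8 were lower, against 30.7% of genes called, 15.8% lower and 14.9% higher, with a median of -0.75 for the 8 and -0.01 for all genes. In DKO against Cpt2L-/- none of the 8 was called by edgeR, where 2.71% of genes were, and Foxa2 and Foxa3 had an unadjusted p under 0.05. Foxa2 and Foxa3 kept their calls in DKO against ff;ff and against Rab30L-/- without each of the 8 libraries in turn, as did Cebpa against Rab30L-/-. These last 2 comparisons share the DKO livers.

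**Figure D3:**
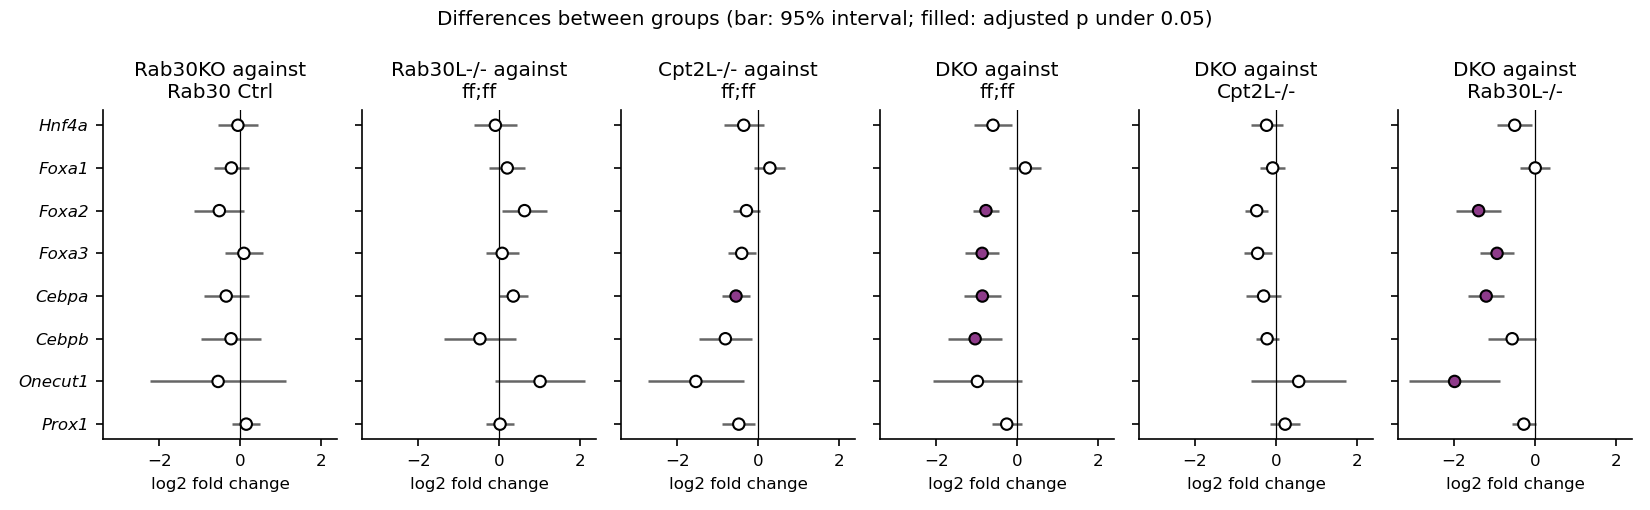
Log2 fold change of the 8 factors (rows) in the 6 pairwise comparisons (panels), with bars for the 95% interval and filled points for the calls (adjusted p below 0.05, change of 1.2-fold or more). The filled points lie below 0, with 1 in Cpt2L-/- against ff;ff and 4 in DKO against ff;ff and against Rab30L-/-.

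The difference between the effect of Rab30 loss with and without Cpt2 was tested as an interaction over 16 libraries (DKO minus Cpt2L-/-, less Rab30L-/- minus ff;ff, on the log2 scale). Foxa2 was the member that passed, at -1.10 (SE 0.30, adjusted p = 0.044), where 4.06% of all genes did. Its mean was higher in Rab30L-/- than in ff;ff and lower in DKO than in Cpt2L-/-. The call was kept in 3 of 16 fits with 1 library left out, those without Rab30L-/- replicate 1 or 3 or ff;ff replicate 3, with log2 values from -1.27 to -0.79 and adjusted p from 0.0159 to 0.0828, and in a fit over all 24 libraries the adjusted p was 0.0932. Cebpa, at -0.66 (SE 0.27, adjusted p = 0.163), and Foxa3, at -0.53 (SE 0.26, adjusted p = 0.239), had the same sign and did not pass.

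Beside the 8 factors, 40 other regulators of hepatocytes were followed. In Cpt2L-/- against ff;ff 12 of 40 were lower and 3 higher, with a median log2 fold change of -0.31. Of all genes 11.9% were lower and 11.9% higher. In DKO against Rab30L-/-, which shares no library with that comparison, 15 were lower and 2 higher, with a median of -0.26. Of all genes 15.8% were lower there and 14.9% higher. The median of the 8 factors, -0.44 and -0.75, was lower in both. This difference was not tested, and both lists were chosen with earlier results of these data known. Nr0b2, which encodes SHP, the bile acid induced repressor, fell the most in both comparisons, from 21.4 ± 14 to 1.4 ± 0.662 CPM (log2 fold change -3.94, SE 0.53, adjusted p = 0.000505) and from 22.8 ± 10.1 to 2.21 ± 1.87 CPM (-3.37, SE 0.78, adjusted p = 0.0156). Klf15, a factor of gluconeogenesis and amino acid use in fasting, fell from 324 ± 67.8 to 131 ± 8.79 CPM in the first comparison (adjusted p = 9.7e-05), and Foxo1, the factor that insulin holds out of the nucleus, fell from 72.4 ± 12.1 to 36 ± 5.89 CPM (adjusted p = 0.000681). Foxo1 was not called in DKO against Rab30L-/- (log2 fold change 0.22, SE 0.21, adjusted p = 0.466). The forkhead gene Foxq1 was lower in both, at log2 fold changes of -1.38 and -2.22, but on means of at most 17.2 CPM, and its calls were lost without ff;ff replicate 3 or Cpt2L-/- replicate 2, 3 or 4 (adjusted p up to 0.0961) and without DKO replicate 1, 2 or 4 (up to 0.0671). Nr0b2 lost its second call without DKO replicate 1 (adjusted p = 0.0509). In DKO against ff;ff 5 of the 40 regulators were lower and 0 higher, with a median of -0.20. Of all genes 8.24% were lower there and 7.87% higher.

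Some regulators were higher in 1 of these comparisons. Dbp, a clock-controlled leucine zipper gene, rose in Cpt2L-/- against ff;ff (log2 fold change 1.17, SE 0.28, adjusted p = 0.0109) and fell in DKO against Rab30L-/- (-1.36, SE 0.32, adjusted p = 0.012). In Rab30L-/-, at 107 ± 12.8 CPM, it was itself higher than in ff;ff, at 40 ± 14.2 CPM (log2 fold change 1.41, SE 0.21, adjusted p = 0.0153), a call lost without Rab30L-/- replicate 4 or ff;ff replicate 2 (adjusted p up to 0.0623), and DKO stood at 41.5 ± 18.8 CPM. Nr1i3, the xenobiotic receptor CAR, also rose in Cpt2L-/- against ff;ff (1.12, SE 0.29, adjusted p = 0.016) and fell in DKO against Rab30L-/- (-0.72, SE 0.19, adjusted p = 0.0138). Atf5, a stress-response leucine zipper gene, rose in the former (0.77, SE 0.20, adjusted p = 0.013). Cebpg and Cebpz were higher in DKO than in Rab30L-/-, by 0.51 and 0.45 on the log2 scale. Cebpg lost its call without Rab30L-/- replicate 2 or 4 or DKO replicate 3 or 4 (adjusted p up to 0.0567). Tbx3, a T-box factor of liver growth, was among the regulators lower in DKO than in Rab30L-/- (-1.19, SE 0.27, adjusted p = 0.0084) and was not called in Cpt2L-/- against ff;ff (0.82, SE 0.38, adjusted p = 0.154).

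Genes for hepatocyte products, many of them known targets of the 8 factors, were mostly lower in livers labelled without Cpt2. Of 44 tested, 31 were lower and 1 higher in Cpt2L-/- against ff;ff, with a median log2 fold change of -1.08. In DKO against Rab30L-/- 30 were lower and 2 higher, with a median of -0.75, and in DKO against ff;ff 26 were lower and 1 higher, with a median of -0.87. Of all genes 11.9%, 15.8% and 8.24% were lower in the same order, and 11.9%, 14.9% and 7.87% higher. Cyp7a1, the rate-limiting enzyme of bile acid synthesis, fell from 150 ± 113 to 13.7 ± 11.6 CPM in Cpt2L-/- (log2 fold change -3.46, SE 0.79, adjusted p = 0.0187). G6pc, the last step of glucose release, fell from 849 ± 235 to 127 ± 39.5 CPM (adjusted p = 1.58e-05), and Otc of the urea cycle from 348 ± 91.5 to 82.1 ± 18.6 CPM (adjusted p = 2.51e-05). In DKO against Rab30L-/- Otc was also lower (log2 fold change -1.19, SE 0.24, adjusted p = 0.00362), but G6pc was not called (-0.18, SE 0.31, adjusted p = 0.697). G6pc was lower in Rab30L-/- than in ff;ff (-1.28, SE 0.24, adjusted p = 0.0423), a call kept in 2 of 8 fits with 1 library left out, those without Rab30L-/- replicate 3 or ff;ff replicate 4 (adjusted p up to 0.148). The largest falls among products in DKO against Rab30L-/- were those of the fibrinogen chains Fgg and Fga, with log2 fold changes of -2.65 and -2.60, then Cyp7a1 at -2.11 (adjusted p = 0.0211) and the fibrinogen chain Fgb at -2.09. Mttp, which loads lipid onto apolipoprotein B, was higher in both, by 0.97 and 0.99. Summed over 44 genes, the products took 97600 to 121000 CPM in Cpt2L-/- and 123000 to 145000 CPM in DKO, against 192000 to 237000 CPM in ff;ff and 185000 to 199000 CPM in Rab30L-/-, with no overlap between the 2 former and the 2 latter genotypes. Of the values named, Cyp7a1 lost its call in Cpt2L-/- without Cpt2L-/- replicate 1 or 3 (adjusted p up to 0.0577) and in DKO against Rab30L-/- without DKO replicate 1 (0.0656).

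**Figure D4:**
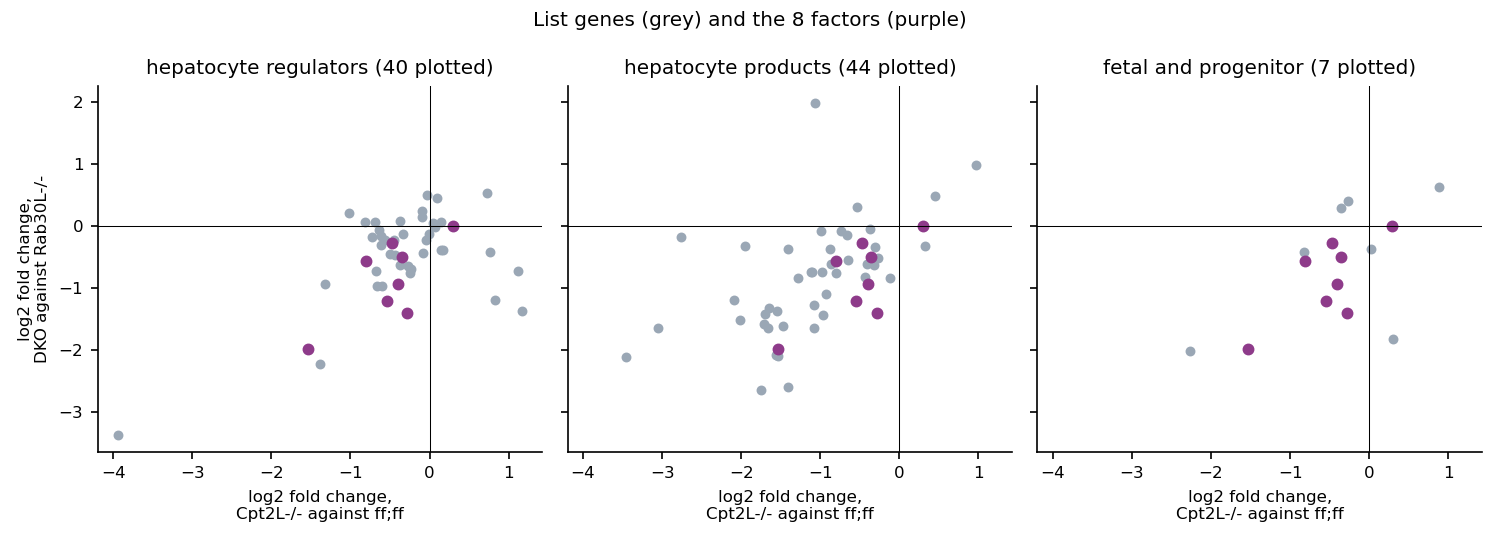
Log2 fold change in Cpt2L-/- against ff;ff (x axis) and in DKO against Rab30L-/- (y axis), which share no library, for the genes of 3 lists (grey, 1 list a panel) and for the 8 factors (purple, the same in each panel). Of the purple points 7 lie below 0 on both axes, Foxa1 is the exception, and most products lie below 0 on both.

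The fetal and progenitor list was followed because loss of hepatocyte identity is often described with such genes. Of 18 genes 9 were tested in Cpt2L-/- against ff;ff, where Aldoa, an aldolase of glycolysis, was higher (146 ± 50.4 to 273 ± 11 CPM, adjusted p = 0.00627) and Sox9, also a bile duct marker, was lower (4.72 ± 0.962 to 0.981 ± 0.501 CPM, adjusted p = 0.000446). In DKO against Rab30L-/- Aldoa was again higher (adjusted p = 0.014), and Sox9 and Afp, the fetal albumin relative, were lower (adjusted p = 0.00129 and 0.00402). Afp was low throughout, at 1.83 ± 0.512 CPM in Rab30L-/- and 0.515 ± 0.141 CPM in DKO. Lin28b was at 0 counts in all 24 livers.

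In whole liver, fewer cells of a type and less RNA per cell cannot be told apart. Markers of other liver cells were therefore summed beside the factors. Of the 10 markers of Kupffer cells, the liver macrophages, 3 were lower in Cpt2L-/- against ff;ff, 6 in DKO against ff;ff and 9 in DKO against Rab30L-/-, and none was higher. Of all genes 11.9%, 8.24% and 15.8% were lower in the same order, and 11.9%, 7.87% and 14.9% higher. The Kupffer markers summed to 169 to 204 CPM in DKO, 178 to 268 CPM in Cpt2L-/-, 220 to 403 CPM in ff;ff and 279 to 794 CPM in Rab30L-/-. The 8 stellate markers summed to 266 to 318 CPM in DKO, 279 to 301 CPM in Cpt2L-/-, 148 to 282 CPM in ff;ff and 261 to 291 CPM in Rab30L-/-, and 1 of them was lower in DKO than in Rab30L-/-. The 8 endothelial markers summed to 301 to 409 CPM, 282 to 344 CPM, 284 to 438 CPM and 275 to 311 CPM in the same order, with 1 lower in Cpt2L-/- than in ff;ff and 2 higher in DKO than in Rab30L-/-. The 9 bile duct markers, of which some, Epcam, Sox9 and Spp1 among them, are also on other lists here, summed to 22.7 to 34.8 CPM in DKO, 21.3 to 32.1 CPM in Cpt2L-/-, 24.3 to 46.1 CPM in ff;ff and 33.5 to 51.1 CPM in Rab30L-/-, so that Cpt2L-/- and Rab30L-/- did not overlap. Of these markers 1 of 5 tested was lower in Cpt2L-/- than in ff;ff and 2 of 4 tested in DKO than in Rab30L-/-, and the others were too low to test. The 6 lymphocyte markers summed to 6.33 to 11 CPM in DKO, 6.81 to 8.78 CPM in Cpt2L-/-, 5.79 to 10.8 CPM in ff;ff and 6.49 to 19.3 CPM in Rab30L-/-. The part of these other cells in the differences of the 8 factors was not tested.

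Between livers of 1 genotype the correlations of the factors with each other ran in both directions. Each library's log2 CPM was taken less its group mean, and the 28 pairs of factors had a median Pearson correlation of 0.07 over the 24 libraries, from -0.58 for Cebpb with Prox1 to 0.63 for Hnf4a with Cebpb. Only Hnf4a with Cebpb, Foxa2 with Onecut1 (0.59) and Foxa2 with Cebpa (0.58) were above 0.5. The points share the library and its scaling, and taking off the group mean leaves fewer independent values than libraries. The clock-controlled leucine zipper genes Dbp, Tef and Hlf were set beside the 8 factors after the values had been seen. Of the 24 relations 3 were above 0.5, namely Cebpa with Dbp (Pearson 0.87, Spearman 0.73), Prox1 with Hlf (0.75 and 0.70) and Cebpa with Tef (0.52 and 0.47), and 1 was below -0.5, Foxa3 with Hlf (-0.53 and -0.55). Without the 2 libraries farthest from the median of the clock gene, these were at 0.79, 0.68, 0.41 and -0.53. No background of other gene pairs was computed for these correlations or for those among the factors. All livers were collected at 3 pm under 14 h of light and 10 h of dark, per the methods.

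**Figure D5:**
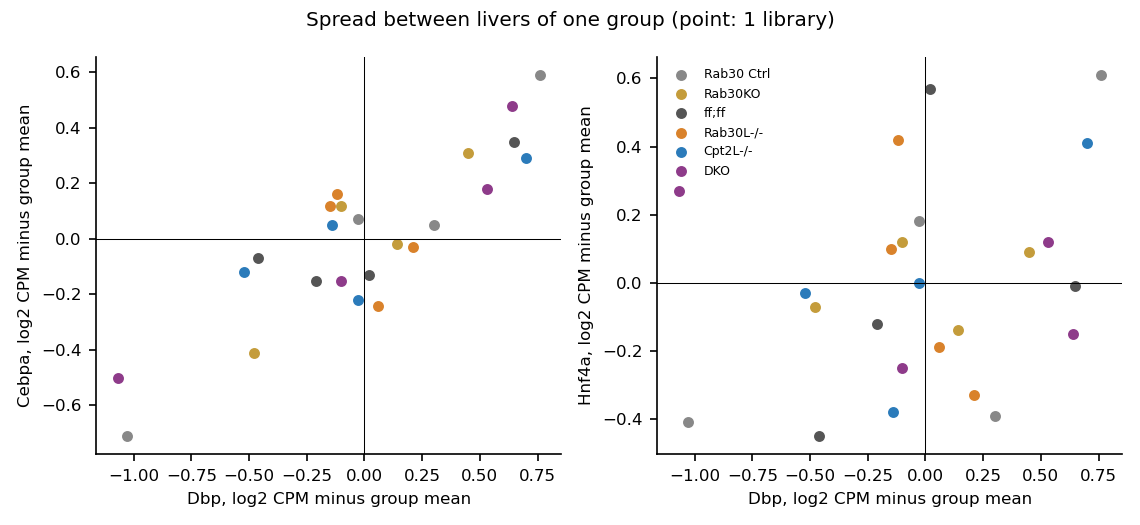
Log2 CPM less the group mean of Dbp (x axis) against that of Cebpa (left) and Hnf4a (right), with 1 point for each of the 24 libraries coloured by genotype. The points of Cebpa rise with Dbp (Pearson 0.87), and those of Hnf4a are scattered (0.28).

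The genes whose levels were most like each factor over the 24 libraries were found among 7688 other protein-coding genes with a mean of at least 10 CPM (7689 for Onecut1), by Pearson correlation of log2 CPM. The libraries fall into 6 groups, so such a value mixes differences between genotypes with those between livers. Cebpa was closest to Gjb1, the gap junction protein connexin 32 of hepatocytes, at 0.94, and this held among the 16 libraries with Cpt2 intact (0.94) and less among the 8 without (0.78). Cebpb was closest to Tnk2 (0.92), Prox1 to Ube4a (0.90), Foxa2 to Trim11 (0.88), Onecut1 to Fads6 (0.88), Hnf4a to Klf9 (0.85) and Foxa3 to Apoa5 (0.82). Tfr2, the iron-sensing transferrin receptor of hepatocytes, was next after Trim11 for Foxa2, at 0.86. Foxa1 had no such close gene, with Vezt first at 0.58. By Spearman's rank correlation the 3 closest genes were the same for Foxa3 and entirely different for Hnf4a.

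The genes are given with the coordinates of GENCODE M21 on GRCm38. Hnf4a lies on chromosome 2 from 163506808 to 163572910 and Foxa2 on the same chromosome from 148042877 to 148046969, as does Cebpb from 167688915 to 167690418. Foxa3 lies on chromosome 7 from 19013284 to 19023538 and Cebpa from 35119293 to 35121928. Foxa1 lies on chromosome 12 from 57540628 to 57546916, Onecut1 on chromosome 9 from 74861921 to 74891781 and Prox1 on chromosome 1 from 190118035 to 190170714. Annotated antisense genes overlap Hnf4a (Hnf4aos), Cebpa (Gm45091) and Prox1 (Prox1os and Gm28172), Tmem189 overlaps Cebpb on the other strand, and Gm20649 overlaps Onecut1 and the snRNA gene Gm25881 overlaps Hnf4a on the same strand. Whether strand was used in counting is not given in the sources used here, so reads of these overlaps cannot be told apart. No other gene overlaps Foxa1, Foxa2 or Foxa3.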

How the data were processed

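Liver RNA of 24 mice was sequenced by Novogene, with 4 libraries in each of 6 genotypes. The deposited counts are whole numbers of reads for each gene, not normalized, and the authors also deposited FPKM values, which divide by gene length and library size. The submitters' processing notes name HISAT2, DESeq2 and the builds GRCm38 and mm10, and the counting tool and its strand setting are not given in the sources used here. A table of normalized counts and 5 tables of the authors' own comparisons (fold changes and p-values) were not used. Of the gene identifiers 53499 (98.1%) had GENCODE M21 coordinates.

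Groups were taken from the labels, and replicate numbers only name libraries. Genes were kept by filterByExpr, scaled by TMM and tested with edgeR 4.0.16 (glmQLFit with robust estimation, glmQLFTest; R 4.3.3) on the libraries of each comparison, with Benjamini-Hochberg adjustment over all genes tested. Calls required an adjusted p below 0.05 and a change of 1.2-fold or more. P-values measure the spread between the 4 livers of a group. Alternatives were DESeq2 size factors, DESeq2 1.42.0, limma 3.58.1 (voom), a fit over 24 libraries, each library left out, unadjusted p, the fold threshold dropped, and the filter dropped (1 count or more) or set to 10 counts in each library. The steps were tested on simulated data. Reads carry no molecular identifiers, so depth covers counting error only. Upstream sequences are from RefSeq.

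The 8 factors and all gene lists were chosen with earlier results of these data known. The text names the 8 factors, Rab30 and Cpt2, and for the lists of regulators, products and fetal genes up to 4 called genes with the largest change in each direction in Cpt2L-/- against ff;ff and DKO against Rab30L-/-. It also names, for each factor, from the 3 most correlated protein-coding genes (at least 10 CPM on average, log2 CPM with a prior count of 2). Dbp, Tef and Hlf were set beside the factors after seeing the data. Named genes in further comparisons (Tbx3, Dbp, G6pc, Nr1i3, Foxo1, Otc and Cpt2) and their alternatives were also added after seeing the data. A few genes of the lists enter the counts and sums but are not reported by name here.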

Additional observations from a re-analysis of the deposited data

Results flagged for a closer look

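In 3 of the 48 groups of 4 values (8 factors in 6 genotypes) 1 liver stood apart by Dixon's criterion at the 95% level, and chance gives about 1 in 20 such groups. Cebpb was at 90.6 CPM in ff;ff replicate 1, with the next liver at 259 CPM. Cebpa was at 506 CPM in ff;ff replicate 4, with the next at 380 CPM. Foxa1 was at 27.7 CPM in Rab30 Ctrl replicate 1, with the next at 19.3 CPM.

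The interaction of Rab30 and Cpt2 loss passed for 571 of 14063 genes (4.06%; edgeR quasi-likelihood test, Benjamini-Hochberg adjustment over all genes), and the effect of Rab30 loss on these differed between livers with and without Cpt2. Among the 8 factors 1 passed, Foxa2, at -1.1 on the log2 scale (adjusted p = 0.044). Of the 40 regulators 1 passed upward and 3 downward, namely Dbp, at -2.52 (adjusted p = 0.00981), Tbx3, at -2 (0.044), Nr1i3, at -1.83 (0.0142), and Foxo1, at 1.24 (0.0171). Of the 44 products tested 3 passed, namely G6pc, at 2.58 (0.00291), and Alb and Tdo2, which are not described in the report, and of the 8 stellate markers 1 did, Colec11. Genes other than Foxa2 are given here because they passed, so their number describes no list. The targeted gene Cpt2 passed at -0.99 (0.0191). Without single libraries Cpt2, Dbp, Nr1i3, Foxo1 and G6pc kept their calls in all 16 fits, Tbx3 in 4 (adjusted p up to 0.0868) and Foxa2 in 3.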

How the results depend on the processing

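No paired analysis was possible because the replicate numbers only name libraries in accession order. DESeq2's size factors in place of TMM changed no call among the 8 factors. In the main fit 23.8% of all genes passed in Cpt2L-/- against ff;ff and 2.71% in DKO against Cpt2L-/-. Counts of factors are to be read beside such shares. With DESeq2's Wald test 10 genes passed in Rab30KO against Rab30 Ctrl, 298 in Rab30L-/- against ff;ff, 1032 in DKO against Cpt2L-/- and 1080 in the interaction, and 3 of the 8 factors in Cpt2L-/- against ff;ff and 1 in DKO against Cpt2L-/-. With limma-voom 236 genes passed in Rab30L-/- against ff;ff, 3739 in DKO against ff;ff, 1534 in DKO against Cpt2L-/- and 1268 in the interaction, with 2 factors in Cpt2L-/- against ff;ff and 2 in DKO against Cpt2L-/-, and Foxa1 turned to -0.052 in DKO against Rab30L-/-. In a fit over all 24 libraries 9 genes passed in Rab30KO against Rab30 Ctrl, 114 in DKO against Cpt2L-/- and 374 in the interaction, the last with 0 factors. Without a filter on low counts 6 genes passed in Rab30KO against Rab30 Ctrl, 240 in Rab30L-/- against ff;ff and 705 in DKO against Cpt2L-/-, and 3 factors differed over the 6 groups. With 10 counts required in each library 0 passed in Rab30KO against Rab30 Ctrl and 25 in Rab30L-/- against ff;ff. At an unadjusted p under 0.05 the numbers were 302 in Rab30KO, 1495 in Rab30L-/-, 4733 in Cpt2L-/- and 3977 in DKO against their controls, 2816 in DKO against Cpt2L-/- and 3056 in the interaction, with 1 factor in Rab30L-/- and 5 in Cpt2L-/- against ff;ff, 2 in DKO against Cpt2L-/- and 2 in the interaction.

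When single libraries were left out, the number of genes ran from 0 to 4 in Rab30KO against Rab30 Ctrl, 23 to 93 in Rab30L-/- against ff;ff, 2352 to 3459 in Cpt2L-/- against ff;ff, 1485 to 2675 in DKO against ff;ff, 57 to 445 in DKO against Cpt2L-/- and 300 to 679 in the interaction. The number of factors ran from 0 to 3 in Cpt2L-/- and 2 to 5 in DKO against ff;ff, 0 to 1 in DKO against Cpt2L-/-, 3 to 6 in DKO against Rab30L-/-, 0 to 1 in the interaction and 3 to 5 over the 6 groups. In the main fit 30.7% of all genes passed in DKO against Rab30L-/-. Small changes that were not called took both signs. These were Hnf4a (-0.177 to 0.191), Foxa3 (-0.091 to 0.219), Cebpb (-0.446 to 0.025) and Onecut1 (-0.889 to 0.492) in Rab30KO, Hnf4a (-0.257 to 0.133), Foxa3 (-0.083 to 0.194) and Prox1 (-0.078 to 0.155) in Rab30L-/- against ff;ff, Foxa1 in DKO against Cpt2L-/- (-0.16 to 0.003) and Rab30L-/- (-0.132 to 0.1), and Hnf4a (-0.368 to 0.029) and Onecut1 (-0.741 to 0.123) in the interaction, and G6pc in DKO against Rab30L-/- (-0.39 to 0.024, and 0.227 with limma-voom), on the log2 scale. Of the other genes named, Dbp and G6pc in Rab30L-/- against ff;ff, Foxq1 in Cpt2L-/- against ff;ff and Nr1i3 in DKO against Rab30L-/- lost their calls in the fit over all 24 libraries, as did G6pc with 10 counts required. Without a filter on low counts Foxq1 in both of the latter comparisons, Nr1i3 in Cpt2L-/- against ff;ff, Dbp and Cyp7a1 in DKO against Rab30L-/- and Tbx3 in the interaction lost theirs. The adjusted p-values of these genes were at most 0.124 under these alternatives. No called factor changed direction under these alternatives. The level of a factor in a genotype, relative to its mean over the 24 libraries, moved by more than its SD in 0 of 48 cases with deposited FPKM or DESeq2 size factors and in 4 of 48 with CPM not scaled by TMM. The causes were not tested. With 4 livers a group, Onecut1, on 16 to 516 counts, and Cebpb, with 1 ff;ff liver apart, are the factors whose values are least certain.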
